A study of Homo sapiens with 4 samples.

Results

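The dual-specificity MAP kinase phosphatases are the enzymes that switch MAP kinases off, and 10 of their genes were followed in 4 RNA libraries of ovarian cancer cells. They were taken by gene name from the deposited table, which lists 38558 genes, and all 10 were found, each once. They fall into nuclear inducible members (DUSP1, DUSP2, DUSP4 and DUSP5), cytosolic ERK-selective members (DUSP6, DUSP7 and DUSP9) and members selective for JNK and p38 (DUSP8, DUSP10 and DUSP16).

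ES2 and SKOV3 are 2 established human ovarian cancer cell lines, labelled WT (wild type). For each line there was 1 library of cells without drug (control) and 1 of cells given YY-15 for 48 h, which makes 4 groups of 1 library. YY-15 is a code name, its identity is not described in the labels, and its dose, 4 µM, stands in the column headings alone. No difference could therefore be checked against replicates or tested, and each ratio compares a pair of libraries. The sources used here do not say whether controls received the solvent of YY-15, nor how many cultures went into a library.

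MAP kinases (ERK, JNK and p38) are activated by phosphorylation of a threonine and a tyrosine, and these phosphatases remove both. Several of the genes are themselves induced when MAP kinases are active, so that the enzyme closes a negative feedback loop on the pathway. In many carcinomas, levels of DUSP5 and DUSP6 mRNA are read as a mark of ERK pathway output, while DUSP1 also responds to cellular stress.

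The estimated counts summed to between 62522202 and 67431058 per library. FPKM, which scales the fragments of a gene by its length and by the size of the library, is used as the level, so that genes of different length can be compared. Unless stated otherwise, a log2 ratio is log2((FPKM + 1)/(FPKM + 1)) of the libraries named, which understates differences of genes with low FPKM. Brackets give exact 95% intervals of the log2 ratio of the gene's shares of the estimated counts, without a pseudocount, and cover counting error only. In RNA of whole cultures, fewer cells of one kind and less RNA per cell cannot be told apart. Both lines are labelled epithelial. Of 8 epithelial and ovarian carcinoma markers, 2 reached 1 FPKM in each ES2 library and 4 and 5 did in the SKOV3 pair, with summed levels of 125 and 115 FPKM in ES2 and of 410 and 272 in SKOV3 (control, then YY-15). EPCAM and CDH1 were listed at 0 in both ES2 libraries and were low in SKOV3, at 0.752 and 1.15 FPKM and at 0.207 and 0.547. The keratin gene KRT18 stood at 112 and 102 FPKM in ES2 and at 104 and 97.7 in SKOV3. KRT8 stood at 12.7 FPKM in both ES2 libraries and at 247 and 116 in SKOV3. In SKOV3 PAX8 stood at 37.4 and 43.7 FPKM and KRT19 at 20.5 and 12.5, against at most 0.119 and 0.0363 in ES2. WT1 and MUC16 were at most at 0.255 and 0.0157 FPKM in any library. Of the 4 leukocyte markers in the table only CD68 reached 1 FPKM in any library, and the general leukocyte marker PTPRC was at most at 0.00591 FPKM. Their summed level was 29.1 and 39.9 FPKM in ES2 and 8.37 and 12.9 in SKOV3. The endothelial marker CDH5 stood at 19.5 and 16.3 FPKM in ES2, with PECAM1 and VWF under 0.1. The 4 fibroblast and mesenchymal markers summed to 1300 and 1280 FPKM in ES2 and 854 and 809 in SKOV3, most of it VIM (1210, 1200, 782 and 754), with DCN at most at 0.205. The part of these markers in the results was not tested.

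Promoters are shown for a pair of members that were higher in SKOV3 with YY-15 than without (DUSP1 and DUSP6) and a pair that were far higher in SKOV3 than in ES2 (DUSP8 and DUSP10). The sequences are from RefSeq on GRCh38.p14, run from 250 bases before to 50 after the annotated start, and are written 5′ to 3′ on the gene's strand. Capitals mark every match on either strand to the motifs named after the sequences, and the DUSP6 and DUSP10 windows have none.
DUSP1 promoter, chr5:172771146-172771445, minus strand: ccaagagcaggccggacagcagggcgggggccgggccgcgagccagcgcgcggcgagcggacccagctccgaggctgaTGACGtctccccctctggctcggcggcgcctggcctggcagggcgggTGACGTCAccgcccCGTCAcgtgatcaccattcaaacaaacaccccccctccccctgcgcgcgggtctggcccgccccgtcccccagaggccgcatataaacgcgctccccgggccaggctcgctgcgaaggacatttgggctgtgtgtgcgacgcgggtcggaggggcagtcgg
DUSP6 promoter, chr12:89352452-89352751, minus strand: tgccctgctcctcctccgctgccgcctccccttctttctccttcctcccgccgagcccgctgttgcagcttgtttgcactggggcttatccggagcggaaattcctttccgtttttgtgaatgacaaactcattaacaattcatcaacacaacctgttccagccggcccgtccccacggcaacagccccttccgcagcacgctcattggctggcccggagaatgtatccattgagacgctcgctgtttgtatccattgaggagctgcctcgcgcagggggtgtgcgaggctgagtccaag
DUSP8 promoter, chr11:1572222-1572521, minus strand: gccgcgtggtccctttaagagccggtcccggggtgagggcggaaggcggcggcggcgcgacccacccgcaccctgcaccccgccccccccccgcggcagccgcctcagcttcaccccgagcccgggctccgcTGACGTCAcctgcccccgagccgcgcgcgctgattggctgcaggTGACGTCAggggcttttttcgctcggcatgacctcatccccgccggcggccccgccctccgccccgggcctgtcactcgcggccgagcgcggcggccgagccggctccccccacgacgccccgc
DUSP10 promoter, chr1:221742040-221742339, minus strand: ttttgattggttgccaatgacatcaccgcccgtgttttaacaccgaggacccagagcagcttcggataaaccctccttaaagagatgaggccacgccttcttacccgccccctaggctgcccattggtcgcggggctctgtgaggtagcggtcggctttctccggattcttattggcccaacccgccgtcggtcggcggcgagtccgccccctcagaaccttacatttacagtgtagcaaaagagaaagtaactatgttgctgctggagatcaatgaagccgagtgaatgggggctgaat
The 8-letter cAMP response element TGACGTCA was found in the windows of DUSP1, at positions -125 to -118 with the start as position 0, and of DUSP8, at -118 to -111 and again at -74 to -67. Among all 35116 promoter windows of the table, 1.85% held it. Its core TGACG, which overlaps it, was also found in DUSP1 at -172 to -168 and, on the opposite strand, at -111 to -107, and 24.6% of all windows held this core. In DUSP10 the core was found at -4 to 0 of a second annotated start, not printed here. Neither AP-1 (TGANTCA, 7.71% of all windows), ATF4/CEBP (TGATGNAA, 3.62%), ETS (CCGGAA, 17.2%) nor the serum response element (1.29%) was found in any of the 10 windows of the 8 members with an entry. The NF-kB motif, held by 11.3% of all windows, was found in DUSP7 and DUSP9. No window was used for DUSP4 and DUSP5. These matches describe letters only.

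DUSP1, DUSP5 and DUSP6 dominated the untreated ES2 cells, whereas untreated SKOV3 cells had mostly DUSP1 and DUSP10. Within ES2 control the order of levels was DUSP6 (53.7 FPKM), DUSP5 (52.2), DUSP1 (46.2), DUSP4 (14.8), DUSP7 (8.01), DUSP16 (3.43), DUSP10 (1.85) and DUSP8 (0.136), with DUSP2 and DUSP9 listed at 0. The counting intervals of DUSP6 and DUSP5 overlapped there, and those of the other neighbours above 0 did not. Within SKOV3 control the order was DUSP1 (26.4 FPKM), DUSP10 (15.7), DUSP7 (6.93), DUSP8 (5.92), DUSP5 (3.99), DUSP4 (3.58), DUSP16 (2.24), DUSP6 (1.83), DUSP9 (0.946) and DUSP2 (0.184). There the intervals of DUSP5 and DUSP4 overlapped. DUSP6 was thus first of the 10 genes in one line and eighth in the other.

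**Figure D1:**
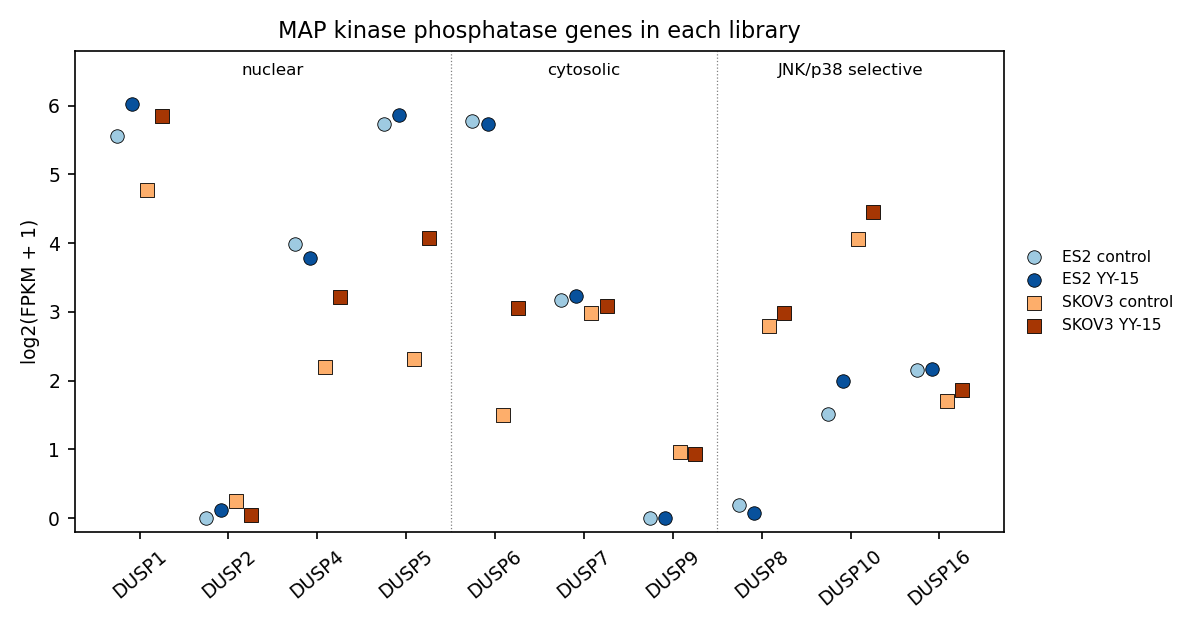
Level of each of the 10 genes in each library, as log2(FPKM + 1), with circles for ES2, squares for SKOV3, pale for control and dark for YY-15, 1 library per point. DUSP5 and DUSP6 lie above 50 FPKM in both ES2 libraries and under 16 FPKM in both SKOV3 libraries. DUSP8 and DUSP10 are higher in both SKOV3 libraries than in both ES2 libraries, at 21.0 FPKM or less.

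The YY-15 library was compared with the control library within each line. In SKOV3 DUSP5 and DUSP6 were about 4-fold higher in the YY-15 library, and DUSP1 and DUSP4 just over 2-fold higher. In ES2 none of the 7 genes past a filter of 1 FPKM reached 2-fold, and under it DUSP8 was at 46 and 18 counts and DUSP2 at 0 and 11 (control, then YY-15). At least 2-fold higher in SKOV3 were 4 of the 10 members, where 1.66% of the 13294 genes with 1 FPKM or more in either library were, and none of the 8 members past the filter was at least 2-fold lower, against 1.31%. In ES2 the corresponding counts among the 7 past the filter were 0 higher and 0 lower, against 0.348% and 0.486% of 12341 genes. The filter of 1 FPKM was passed by 8 members in SKOV3 and 7 in ES2, and each of these reached 1 FPKM in both libraries of the line. Of those, 8 of 8 lay above 0 in SKOV3 with a median log2 ratio of 0.71, against 0.02 over all genes past the filter. In ES2 5 of 7 lay above 0, with a median of 0.06 against -0.02. The members were chosen with earlier results of these data known, so their counts and medians are a description only.

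**Figure D2:**
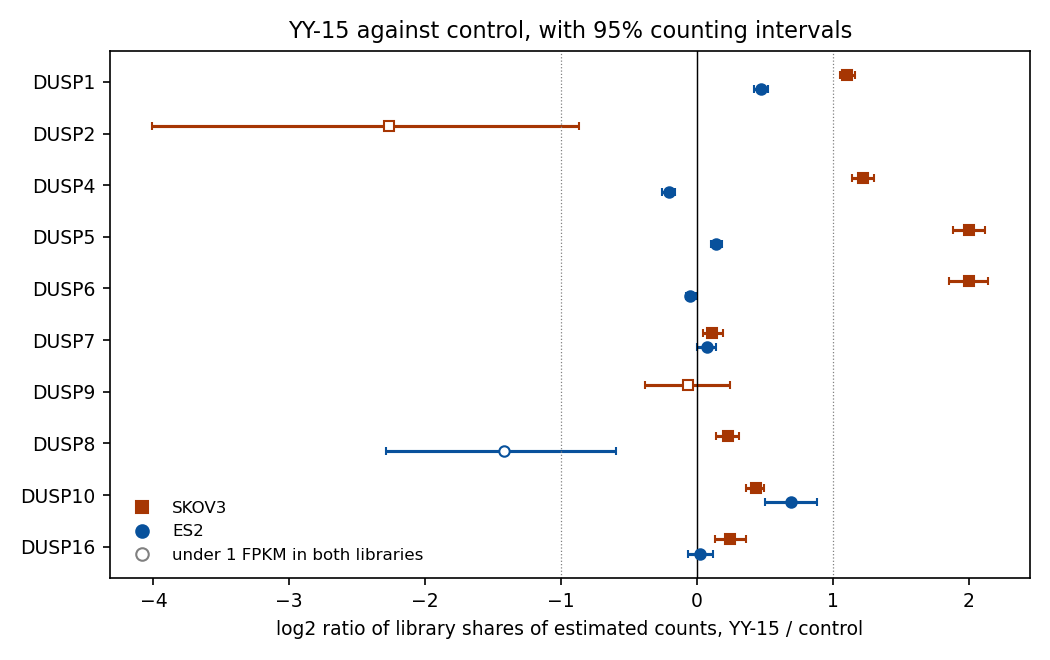
Log2 ratio of each gene's share of the estimated counts, YY-15 over control, in SKOV3 (squares) and ES2 (circles), with exact 95% counting intervals, 1 library per group. Open symbols are genes under 1 FPKM in both libraries of a line, dotted lines mark 2-fold, and DUSP2 and DUSP9 are not drawn for ES2, where a library had a count of 0. DUSP5 and DUSP6 coincide at a ratio of 2.00 in SKOV3 and lie near 0 in ES2.

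Among the nuclear members, DUSP5 (ENSG00000138166, chromosome 10, 110497907 to 110511533, GRCh38) encodes an ERK-specific phosphatase that also holds ERK in the nucleus. Its level was 3.99 FPKM in the SKOV3 control and 15.9 with YY-15, and 52.2 in the ES2 control and 57.5 with YY-15. The SKOV3 library with YY-15 was thus still below both ES2 libraries. The log2 ratio was 1.76 [1.88 to 2.12] in SKOV3, the 42nd highest of 13294 genes, and 0.14 [0.10 to 0.18] in ES2. Without a pseudocount the SKOV3 fold was 3.99. DUSP5-DT, a non-coding gene that starts 1317 bases away on the other strand without overlapping DUSP5, had counts of 629 and 429 in the ES2 control and YY-15 libraries. Its share in ES2 was lower with YY-15, by 0.43 to 0.79 on the log2 scale within counting error, while that of DUSP5 was slightly higher. In both SKOV3 libraries DUSP5-DT had a count of 0, so that as a share of the library it was at least 221-fold higher in untreated ES2, taking 3 counts per library as the limit that a count of 0 allows.

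DUSP1 (ENSG00000120129, chromosome 5, 172768096 to 172771195) encodes an immediate early phosphatase of p38, JNK and ERK. It stood at 26.4 FPKM in untreated and 56.6 in treated SKOV3, and at 46.2 in untreated and 64.1 in treated ES2, so that both YY-15 libraries were above both controls. The log2 ratio was 1.07 [1.05 to 1.16] in SKOV3, a fold of 2.14 without a pseudocount, and 0.46 [0.42 to 0.52] in ES2. At a pseudocount of 5 the SKOV3 ratio was 0.97, just under 2-fold. The ES2 ratio was under 2-fold but ranked 212th of 12341 genes. Across ES2 genes the ratio followed the GC content of the transcript (Spearman rho 0.43 over 12010 genes, which are not independent). With the trend on length and GC content removed, DUSP1 was at 0.39 in ES2.

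DUSP4 (ENSG00000120875, chromosome 8, 29333064 to 29350684) encodes a nuclear phosphatase of ERK and JNK. Its level was 3.58 FPKM in the SKOV3 control and 8.29 with YY-15, and 14.8 in the ES2 control and 12.8 with YY-15. It was higher with YY-15 in SKOV3, by a log2 ratio of 1.02 [1.14 to 1.30], and slightly lower in ES2, at -0.20 [-0.26 to -0.16]. Its place past 2-fold in SKOV3 was marginal at the pseudocount of 1, where the ratio was 0.99 with the length and GC trend removed. It was 0.63 with a pseudocount of 5 and 1.19 with one of 0.1, and the fold was 2.31 without a pseudocount.

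DUSP2 (ENSG00000158050, chromosome 2, 96143169 to 96145440), best known from activated lymphocytes, was close to absent. Estimated counts were 26 without and 5 with YY-15 in SKOV3, and 0 without and 11 with YY-15 in ES2, all under 0.2 FPKM. At this depth it passed the filter in neither line, and no direction is drawn from it.

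Among the cytosolic members, DUSP6 (ENSG00000139318, chromosome 12, 89347235 to 89352501) encodes the classical ERK phosphatase of the cytoplasm. In SKOV3 its level was 1.83 FPKM in the control and 7.28 with YY-15, and in ES2 it was 53.7 and 52.1, so that the SKOV3 libraries lay far below the ES2 libraries. The log2 ratio was 1.55 [1.85 to 2.14] in SKOV3, the 61st highest, and -0.04 [-0.08 to -0.01] in ES2. The pseudocount weighs on this low gene: its fold in SKOV3 was 3.98 without one, close to the 3.99 of DUSP5, and the log2 ratio was 0.85, under 2-fold, with a pseudocount of 5. An unnamed gene on the opposite strand within DUSP6 (ENSG00000274021) had at most 181 counts in any library. DUSP6 itself had from 505 counts (SKOV3 control) to 14192 (ES2 with YY-15), and the library that held the 181 was not singled out. The libraries were made by a method that marks strand, but the sources used here do not state how strand was set in counting.

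DUSP7 (ENSG00000164086, chromosome 3, 52048919 to 52056571), the other widely expressed ERK phosphatase of the cytoplasm, was nearly level across the 4 libraries. It stood at 6.93 and 7.46 FPKM in SKOV3 control and YY-15 and at 8.01 and 8.41 in the ES2 pair. Its log2 ratios were 0.09 [0.04 to 0.19] and 0.06 [-0.00 to 0.14]. DUSP9 (ENSG00000130829, chromosome X, 153642492 to 153651326), a member best known from placenta, was seen in SKOV3 alone, at 0.946 FPKM in the control and 0.904 with YY-15, from 189 and 167 counts. Both ES2 libraries had a count of 0. As a share of the library it was at least 59.7-fold higher in untreated SKOV3 than in untreated ES2, against the same limit of 3 counts.

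The JNK and p38 selective members were all under 2-fold in SKOV3. DUSP10 (ENSG00000143507, chromosome 1, 221701424 to 221742089) stood at 15.7 FPKM in untreated and 21.0 in treated SKOV3, and at 1.85 in untreated and 2.99 in treated ES2. The YY-15 library was the higher of each pair, with log2 ratios of 0.40 [0.36 to 0.49] in SKOV3 and 0.49 [0.50 to 0.88] in ES2, where it ranked 191st of 12341 genes. DUSP10 and DUSP1 were the members with the highest ratios in ES2. At a pseudocount of 5 the ES2 ratio of DUSP10 was 0.22, since its level is low there. DUSP16 (ENSG00000111266, chromosome 12, 12473282 to 12562863) stood at 2.24 and 2.64 FPKM in the SKOV3 pair and 3.43 and 3.49 in the ES2 pair, with log2 ratios of 0.17 [0.13 to 0.36] and 0.02 [-0.07 to 0.12].

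DUSP8 (ENSG00000184545, chromosome 11, 1554051 to 1572271) stood at 5.92 FPKM in untreated and 6.90 in treated SKOV3, and at 0.136 in untreated and 0.0501 in treated ES2. Its log2 ratio in SKOV3 was 0.19 [0.14 to 0.31], and in ES2 it was under the filter. The value is uncertain because the table also lists pseudogenes of DUSP8. DUSP8P5 alone stood at 2.88 and 2.18 FPKM in the ES2 pair and at 1.10 and 0.522 in the SKOV3 pair (control, then YY-15), and so was above DUSP8 itself in ES2. It overlaps the pseudogene GLUD1P3 on the same strand, and 10.4% of the 31-base words of its transcript occur in DUSP8 transcripts, so reads of either gene could be placed on the other.

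**Figure D3:**
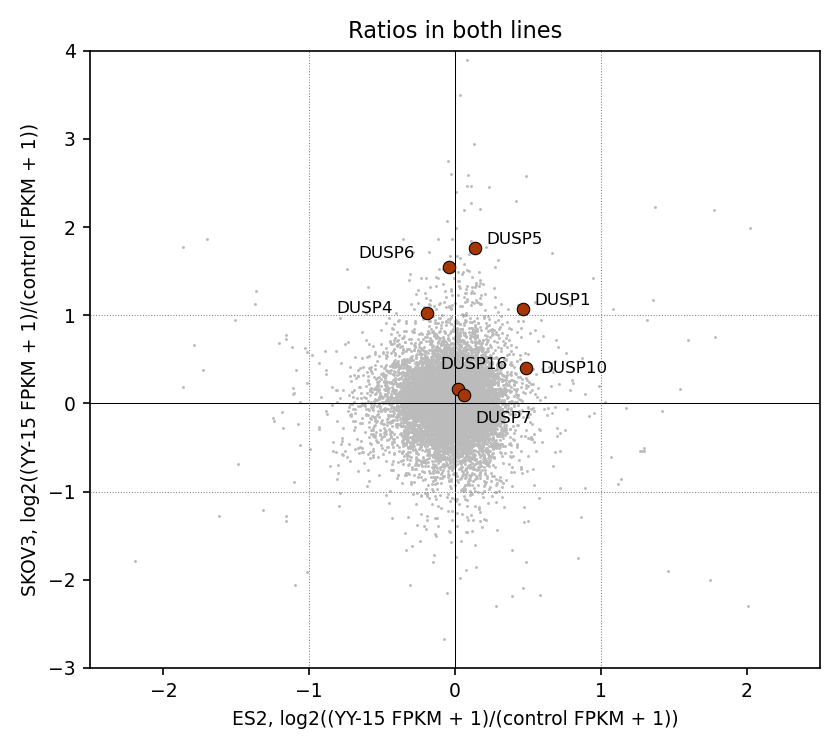
Log2 ratio of YY-15 over control in ES2 (horizontal) and SKOV3 (vertical) for genes past the filter in both lines (grey) and the 7 phosphatase genes among them (red). DUSP4, DUSP5 and DUSP6 lie above the dotted 2-fold line for SKOV3 and near 0 for ES2, and DUSP10 has ratios of 0.49 and 0.40.

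The lines were next compared in their ratio to control. The SKOV3 log2 ratio exceeded the ES2 log2 ratio by 1 or more for 3 of the 10 members, DUSP5 (1.63), DUSP6 (1.59) and DUSP4 (1.22), where 2.63% of 14607 genes with 1 FPKM in any library did. No member differed as far in the other direction, where 1.72% of genes did. The difference was 0.61 for DUSP1, 0.30 for DUSP8 (under the filter in ES2), 0.15 for DUSP16, 0.03 for DUSP7 and -0.09 for DUSP10. For DUSP1 the intervals of the lines' ratios did not overlap, and for DUSP7 they did. For DUSP16 and DUSP10 they only just failed to overlap. The nearest bounds were 0.13 in SKOV3 and 0.12 in ES2 for DUSP16, and 0.49 and 0.50 for DUSP10. The DUSP10 difference was positive at a pseudocount of 5. These intervals cover counting error only, so a gap between them does not settle whether the lines differ.

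Among the 8 members past the filter, the log2 ratios between the untreated lines were furthest from 0 for DUSP6 and DUSP5, higher in ES2, and for DUSP8 and DUSP10, higher in SKOV3. With SKOV3 over ES2, 2 of the 10 members were at least 4-fold higher, DUSP8 (log2 ratio 2.61) and DUSP10 (2.55 [2.92 to 3.24]), where 4.81% of 14024 genes were. DUSP6 (-4.27 [-5.00 to -4.75]) and DUSP5 (-3.41 [-3.82 to -3.60]) were at least 4-fold lower, where 3.25% were. Without a pseudocount, untreated ES2 held 29.4-fold more DUSP6, 13.1-fold more DUSP5 and 4.14-fold more DUSP4 than untreated SKOV3, and SKOV3 held 8.47-fold more DUSP10. The log2 ratios between the untreated lines were -1.79 for DUSP4, -0.78 for DUSP1, -0.45 for DUSP16 and -0.18 for DUSP7. With its pseudogene copies added, an alternative chosen after seeing the data, DUSP8 stood at 7.09 FPKM in untreated SKOV3 and 3.05 in untreated ES2, under 4-fold. In estimated counts, as a share of the library, the same sum was 5.26-fold higher in SKOV3.

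Between the YY-15 libraries, which share no library with the untreated pair, the order of the lines was the same for these members. ES2 was 7.15-fold above SKOV3 for DUSP6, 3.60-fold for DUSP5 and 1.55-fold for DUSP4, and SKOV3 was 7.02-fold above ES2 for DUSP10. At least 4-fold higher in SKOV3 were DUSP8 and DUSP10, against 5.47% of 14056 genes, and at least 4-fold lower was DUSP6 alone, against 2.75%. DUSP1 was 1.75-fold higher in ES2 without YY-15 and 1.13-fold higher with it.

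Summed over the 10 genes, the level was 67.7 FPKM in untreated and 127 in treated SKOV3, and 180 in untreated and 201 in treated ES2. The treated SKOV3 library thus held 1.88-fold its control and was below untreated ES2, and the ES2 pair differed by 1.12-fold. The change of DUSP1 equalled 50.8% of the net gain of the sum in SKOV3 and 84.6% of that in ES2. The net gain counts lower members as negative, in ES2 mainly DUSP4 and DUSP6. The makeup of the sum differed between the lines. JNK and p38 selective members made up 35.2% of it in untreated and 24.0% in treated SKOV3, against 3.01% and 3.24% in the ES2 pair. Nuclear members made up 50.5% of the SKOV3 control and 63.6% with YY-15, against 62.8% and 66.7% in ES2. Cytosolic members made up 14.3% and 12.3% in SKOV3 and 34.2% and 30.0% in ES2.

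**Figure D4:**
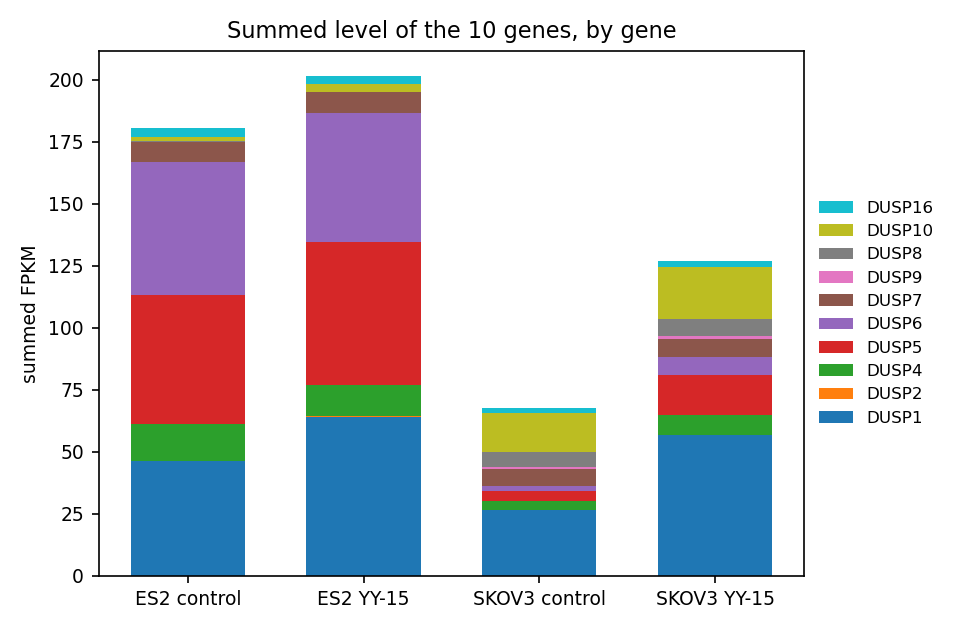
Summed FPKM of the 10 genes in each library, stacked by gene from DUSP1 at the bottom to DUSP16 at the top, 1 library per bar. The sums are 180, 201, 67.7 and 127 FPKM from left to right, with DUSP5 and DUSP6 large in both ES2 bars and DUSP10 large in both SKOV3 bars.

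The MAP kinases, which are the substrates, and their upstream kinases were under 2-fold wherever they passed the filter. Of 10 MAP kinase genes, 8 passed the filter in SKOV3 and 9 in ES2, and none was at least 2-fold different in either line, with medians of 0.06 and 0.05. Of all genes past the filter, 2.97% in SKOV3 and 0.835% in ES2 were. For lists this short a count of 0 is near those shares and is a description only. MAPK11, a p38 isoform, was at 0.33 in SKOV3 and 0.18 in ES2. MAPK7, which encodes ERK5, was at -0.44 and 0.05, and MAPK12, another p38 isoform, at 0.27 and -0.05. Of 10 MAP2 kinase and RAF genes, 8 passed in SKOV3 and 9 in ES2, again with none at 2-fold and with medians of -0.01 and 0.09. The furthest from 0 were MAP2K5, the ERK5 activator (0.54 in SKOV3 and 0.11 in ES2), and the RAF kinase genes BRAF (0.20 and -0.20) and ARAF (-0.21 and 0.16). BRAF stood at 0.711 FPKM in SKOV3 control and 0.965 with YY-15, under the filter.

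The other phosphatase genes past the filter were also under 2-fold. Among 10 genes for other phosphatases that act on MAP kinases, 7 passed the filter in each line, none was at 2-fold, and the medians were 0.05 in SKOV3 and 0.01 in ES2. PPM1A, a serine/threonine phosphatase, was at 0.56 and -0.23, and the PP2A subunit genes PPP2R1A (-0.38 and 0.22) and PPP2CA (-0.29 and -0.07) were next. Of 18 genes listed as atypical dual-specificity phosphatases, slingshot and STYX genes included, 13 passed in SKOV3 and 11 in ES2. None was at 2-fold, and the medians were 0.01 and 0.08. For both lists a count of 0 is near the shares of all genes, 2.97% in SKOV3 and 0.835% in ES2, and is a description only. DUSP12 was at 0.34 in SKOV3 and -0.16 in ES2, DUSP23 at 0.30 and 0.08, and the slingshot gene SSH1 at 0.33 and -0.05. DUSP3, which belongs to both lists, was at 0.05 and 0.03.

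Some of the genes listed as output of ERK or of JNK and p38 were at least 2-fold higher in SKOV3 with YY-15, where 1.66% of all genes were. Both lists were chosen with earlier results of these data known, so their counts and medians are a description only. Of 19 ERK output genes, 16 passed the filter in SKOV3, 14 lay above 0 and 5 were at least 2-fold higher, with a median of 0.82 against 0.02 over all genes. PHLDA1 stood at 44.2 FPKM in SKOV3 control and 206 with YY-15, a log2 ratio of 2.19. The ETS factor gene ETV5 was at 1.70, and SPRY4, a Sprouty inhibitor of the pathway that passed through the YY-15 library alone (0.548 against 2.68 FPKM), at 1.25. In ES2 PHLDA1, ETV5 and SPRY4 were at 0.06, 0.10 and -0.21. In SKOV3 the receptor gene EPHA4 (-0.92) and the immediate early gene EGR1 (-0.80) were the only 2 of the 16 below 0. In ES2 18 passed, 9 lay above 0, none was at 2-fold and the median was -0.03. Of all genes past the filter in ES2, 0.835% were at 2-fold in either direction. Of 14 JNK and p38 output genes, 13 passed in SKOV3, 9 lay above 0 and 4 below, and 4 were at least 2-fold higher, with a median of 0.88. The lowest was the small heat shock protein gene HSPB1, at -0.59. This list also holds genes of kinases downstream of MAP kinases, which are not all known to respond in mRNA. Of these, MAPKAPK2 (-0.04), MAPKAPK3 (-0.04) and MKNK1 (-0.06) were the others below 0, and MKNK2 was at 0.96. The growth arrest gene GADD45A was at 2.47 (0.11 in ES2), the stress factor gene ATF3 at 2.09 and GADD45B at 1.31 (0.27). ATF3 again passed through the YY-15 library alone in SKOV3 (0.844 against 6.87 FPKM). In ES2 it was under the filter, at 0.365 and 0.413 FPKM, so no ES2 ratio is read from it. In ES2 12 passed, with none at 2-fold and a median of 0.13. Among the genes named from these lists, MAPK12, PPP2R1A, PPP2CA, SSH1 and ETV5 overlap another gene of the table on the same strand and are uncertain. None of the 10 phosphatase genes does.

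**Figure D5:**
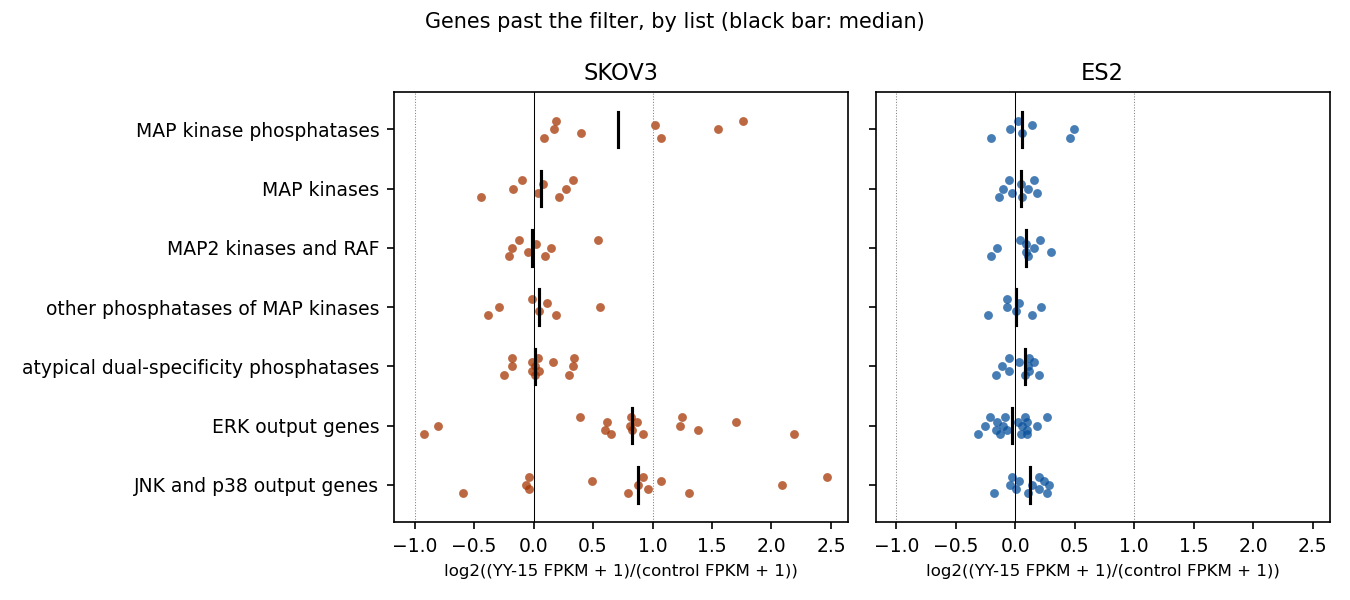
Log2 ratio of YY-15 over control for the genes past the filter in SKOV3 (left) and ES2 (right), with 1 point per gene, rows by list, and a black bar at each list's median. In SKOV3 the medians of the MAP kinase phosphatases and of both output lists lie between 0.71 and 0.88 and the other 4 between -0.01 and 0.06. All lists were chosen with earlier results of these data known.

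The genes nearest in pattern were sought for the 4 members at least 2-fold higher in SKOV3. The measure was the Euclidean distance between levels, as log2(FPKM + 1) centred on each gene's mean over the 4 libraries, among 5972 named genes reaching 5 FPKM with no same-strand overlap. Nearest to DUSP6 were PLAT, the tissue plasminogen activator gene (distance 0.16), the serine synthesis gene PHGDH (0.26) and the adhesion receptor gene ICAM1 (0.51). For DUSP5 these were STC2 (0.34), SPRY4 (0.44) and the interleukin gene IL1B (0.44). For DUSP4 they were FAM43A (0.23), HBEGF, an EGF receptor ligand gene (0.24), and SLC43A1 (0.25). For DUSP1 they were LDAF1 (0.19), DLC1 (0.26) and the pseudogene RPL41P1 (0.28). PLAT stood at 146 and 164 FPKM in the ES2 pair and at 7.03 and 21.5 in the SKOV3 pair. With 4 libraries such likeness is a description only.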

How the data were processed

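Poly(A)-selected RNA of 4 libraries, 1 per group, was sequenced from both ends, per the labels' protocols. The authors deposited FPKM and estimated counts per gene in 1 table, per the file headers. The counts are whole numbers but were treated as estimated counts, because in each library 210 to 229 genes show an FPKM under 0.001 where the count is 1. The submitters' processing notes name StringTie 2.1.6, HISAT2 2.2.1, cutadapt 1.9, edgeR and DESeq2, with roles not given in the sources used here. The notes name mm10, a mouse build, but the identifiers are human, and all 10 members overlap their GENCODE 29 gene, so coordinates are given as GRCh38. Column headings gave each library's line and whether it was a control or had a dose. All 8 value columns were used.

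Members and gene lists were chosen with earlier results of these data known. Ratios used a pseudocount of 1 FPKM and a filter of 1 FPKM in at least 1 library compared, with sizes of 2-fold for YY-15 and 4-fold between lines. Intervals are exact Clopper-Pearson intervals, and cover counting error only, as reads copied in PCR are no independent molecules. Genes named from a list were the 3 furthest from 0 on average over both lines, and in the text any others, the pseudogenes and DUSP5-DT were picked with their values in view. Simulated data were used to test the calculation. A planned comparison of protein sequences was not made. Python 3.11.15, numpy 2.4.6, pandas 2.3.3, scipy 1.17.1 and statsmodels 0.14.6 were used.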

Additional observations from a re-analysis of the deposited data

Results flagged for a closer look

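DUSP4 and DUSP6 had ratios of opposite sign in the lines, higher with YY-15 in SKOV3 and lower in ES2. The log2 ratios were 1.22 apart for DUSP4 and 1.59 apart for DUSP6, SKOV3 minus ES2. With 1 library per group the difference was not tested, and the ES2 ratio of DUSP6, -0.04, is close to 0.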

How the results depend on the processing

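No paired analysis was possible because each group held 1 library. Of 30 ratios of single members, 27 kept their sign under all alternatives run. The others, within 0.1 of 0 as reported, were the differences between lines of DUSP7 (-0.01 when centred on the median of all genes) and DUSP10 (0.11 at a pseudocount of 5), and the ES2 ratio of DUSP16 (-0.02 as TPM, with each library's FPKM scaled to the same sum). At a pseudocount of 5, the members at least 2-fold different in SKOV3 were 1 (DUSP5) in place of 4, those 4-fold different between the untreated lines 2 in place of 4, and those with ratios 1 apart between lines 1 in place of 3. At a size of 3-fold, 1 member (DUSP5) was different in SKOV3, against 0.669% of all genes. DUSP6 was 3.98-fold higher there without a pseudocount, and fell short of 3-fold with the pseudocount of 1. The log2 ratio of the summed level was 0.91 in SKOV3 and 0.16 in ES2 from FPKM, 0.96 and 0.12 as TPM, and 0.81 and 0.08 from estimated counts scaled to library size (CPM), where long genes weigh more. With the trend on length and GC content removed, or after centring, the SKOV3 count was 3, without DUSP4. Of all genes, 2.9% and 2.99% were past 2-fold there. Between the untreated lines 5 members were 4-fold different at a pseudocount of 0.1, from CPM and with the trend removed, each with DUSP4 added. The shares of all genes were 18.4%, 13.9% and 7.57%. As TPM there were 5, with DUSP9 added (13.3%), and with DUSP8 summed with its copies 3, without DUSP8 (8.05%). The background also moved: the shares of all genes past these sizes were 2.97%, 8.06% and 4.35% as reported (SKOV3, untreated lines, difference between lines), 1.14%, 2.03% and 1.22% at a pseudocount of 5, and 6.87%, 18.4% and 11.0% at 0.1. Depth limits DUSP2 in every library and DUSP8 and DUSP9 in ES2, where counts were 46 or fewer.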
